A study of Mus musculus with 8 samples.

Results

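Histone cluster genes encode the linker histone H1 and the core histones H2A, H2B, H3 and H4, and lie in the groups Hist1 to Hist4 of the mouse genome. They were taken as every gene of the deposited table whose symbol starts with Hist, a cluster number, the letter h and one of these histone types, which gave 67 of 23284 genes. Of the 67, 20 averaged 1 or more over all conditions in FPKM, which counts sequenced fragments relative to transcript length and library size. The cells were P19, a mouse embryonal carcinoma line, transfected with an siRNA against UPF3A (knockdown) or with siControl. UPF3A belongs to nonsense-mediated decay, which removes mRNAs with a premature stop codon. All cells, knockdown and control, received actinomycin D, which blocks transcription, 24 h after transfection, and RNA was taken at 0, 15, 105 and 225 min after it. The knockdown arm therefore had 4 conditions and so did the control arm. Each condition has 1 deposited value from 2 cultures, so n below counts time points and no spread between cultures is known. No samples without actinomycin D were analysed here, and the labels do not say whether P19 was used as a pool or a clone.

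Most histone cluster genes are copied during DNA replication, when new chromatin needs new histones. Their mRNAs have no introns and no poly(A) tail and end just after a stem-loop, which is bound by the protein SLBP. When DNA synthesis stops they are removed quickly, in a process that needs the decay factor UPF1, short uridine tails and the exonuclease ERI1. Replacement histones, such as H2A.Z and H3.3, come from genes outside the clusters with ordinary poly(A) tails. A library made from poly(A) RNA takes up mainly those cluster transcripts that have a tail. The labels name total RNA and a standard Illumina preparation, and do not say whether poly(A) RNA was selected or whether strand was kept.

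The stem-loop is shown because it is the feature that sets these mRNAs apart from nearly all others, and because the selection rule did not use it. The pattern GGNNNNTNNNNNNNCC was searched on the transcript strand within 100 bases after the stop codon of 1 transcript per gene (GENCODE vM21, GRCm38), with 6 base pairs between its ends, G with T included, and a loop of 4 bases. It was found in 45 of the 51 histone cluster genes with at least 16 annotated bases there, and in 0.224% of other genes. Among the 20 genes averaging 1 FPKM or more, 17 had such sequence and 15 of these held the pattern, in 6 different forms. The first form below was shared by 7 of them (Hist3h2ba, Hist1h1c, Hist1h2bm, Hist1h3a, Hist1h2ag, Hist1h2ae and Hist3h2a), the second by 3 (Hist1h3c, Hist1h3e and Hist1h2bk) and the third by 2 (Hist1h4d and Hist1h4h), while the others were held by 1 gene each. Capitals mark the stem-loop, and 5 bases on each side are in lower case.
Hist3h2ba, chr11:58949349-58949364, plus strand: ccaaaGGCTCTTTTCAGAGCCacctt
Hist1h3c, chr13:23745047-23745062, minus strand: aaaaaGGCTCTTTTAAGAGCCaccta
Hist1h4d, chr13:23581950-23581965, plus strand: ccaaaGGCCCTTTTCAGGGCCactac
Hist1h4i, chr13:22040966-22040981, minus strand: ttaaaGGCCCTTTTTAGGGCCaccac
Hist1h3g, chr13:23535889-23535904, plus strand: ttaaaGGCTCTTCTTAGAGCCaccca
Hist1h4b, chr13:23757366-23757381, plus strand: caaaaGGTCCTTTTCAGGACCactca
The stem-loop began 24 to 41 bases after the stop codon in these 15 genes. The annotated transcript ran on for 23 to 1643 bases past it, and for more than 150 bases in 7 genes: Hist3h2ba, Hist1h4d, Hist1h4i, Hist1h1c, Hist1h3e, Hist1h2ae and Hist3h2a. Hist1h1a and Hist1h2bc had no match in the window searched, and Hist1h2ak, Hist2h2bb and Hist1h3h have no annotated bases after the stop codon. Hist1h1a has only 48 annotated bases there, too few to hold a stem-loop that begins at the far end of that range.

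Upf3a mRNA itself was 5.27, 4.52, 4.76 and 4.16 FPKM in the knockdown arm at 0, 15, 105 and 225 min, against 13.6, 13.9, 14.0 and 15.0 FPKM in the control arm. Their log2 ratio averaged -1.42 with an SD of 0.17 over 4 time points, and had an exact two-sided sign-flip p of 0.125, the smallest that 4 time points allow. FPKM summed over all genes to between 537350 and 923333 per condition, highest at 225 min in both arms, and the number of reads is unknown. Markers of the line were present, with 9 of 10 P19 markers averaging 1 FPKM or more against 3 of 6 neural, 5 of 6 fibroblast and smooth muscle and 1 of 5 endoderm markers in the table. In bulk RNA, fewer cells making histones and less histone mRNA per cell cannot be told apart.

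Histone cluster mRNA made up a small part of the measured RNA. Besides the 20 genes averaging 1 FPKM or more, 38 were above 0 with a mean under 1, and 9 were listed at 0 in every condition. The 20 comprised 2 of 6 H1, 4 of 18 H2A, 5 of 18 H2B, 5 of 12 H3 and 4 of 13 H4 genes, and 17 of them belong to the Hist1 cluster on chromosome 13, 2 to Hist3 on chromosome 11 and 1 to Hist2 on chromosome 3. The threshold ran between Hist1h4h (mean 1.04 FPKM) and Hist1h2bl (0.957 FPKM). With a minimum mean of 5 FPKM, 3 genes remained, namely Hist3h2ba, Hist1h3c and Hist1h4d, and 5 genes had 1 FPKM or more in every condition (these 3, Hist1h4i and Hist1h1c).

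The highest mean belonged to Hist3h2ba (10.9 FPKM), an H2B gene, followed by Hist1h3c (10.0 FPKM), an H3 gene, and Hist1h4d (9.66 FPKM), an H4 gene. These 3 genes held 33.9%, 32.6%, 41.7% and 39.5% of the summed FPKM of all 67 in the knockdown arm at 0, 15, 105 and 225 min, and 34.1%, 43.5%, 45.7% and 44.0% in the control arm. The next were Hist1h4i (3.31 FPKM), Hist1h1c (3.05 FPKM), Hist1h3e (2.66 FPKM) and Hist1h2bm (2.00 FPKM), and the other 13 lay between 1.04 and 1.86 FPKM. Replacement histone genes were far higher on the same per-length scale, with means of 935 FPKM for H2afz, which encodes H2A.Z, and 701 FPKM for H3f3a, which encodes H3.3.

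Below the threshold, the highest means were Hist1h2bl (0.957 FPKM), Hist1h4a (0.816 FPKM), Hist1h1b (0.769 FPKM), Hist1h4k (0.765 FPKM) and Hist1h3i (0.744 FPKM). Of the 9 genes at 0 throughout, 6 were H2A, 2 were H2B and 1 was H4. Histone genes of one type are near copies of each other, and reads that match several copies may have been split between them or dropped. A median of 85.6% of the 50-base windows in the transcripts of the 9 genes also occurred in another histone cluster gene, against 44.5% in the 20 genes averaging 1 FPKM or more. Among the 20, more than 50% of windows were shared in 7: Hist1h3h (93.9%), Hist1h2ag (78.9%), Hist1h2bk (74.2%), Hist1h3e (73.4%), Hist1h4b (54.6%), Hist1h3g (54.0%) and Hist1h2ak (52.3%), so their levels are uncertain. A further 6 of the 67 genes share 3 loci pairwise in the table (Hist1h1e with Hist1h2be, Hist1h2ao with Hist1h2ap, Hist2h2aa1 with Hist2h2aa2). Exons of other genes overlap Hist1h2ag, Hist1h4b, Hist1h2ae, Hist1h2ak, Hist2h2bb and Hist3h2a, and without strand such reads cannot be assigned. For Hist2h2bb (Gm42743) and Hist3h2a (Trim17) an overlapping gene lies on the same strand, where strand would not separate the reads.

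After actinomycin D, histone cluster mRNA increased relative to the rest of the RNA in both arms. The 67 genes together had 36.9, 60.8, 70.6 and 123 FPKM in the knockdown arm at 0, 15, 105 and 225 min, and 39.9, 71.2, 66.0 and 135 FPKM in the control arm. The level at 225 min was 3.34 times that at 0 min in knockdown cells and 3.39 times in control cells. The FPKM total of all genes also grew, by factors of 1.72 and 1.56, so that the share of the 67 genes in it at 225 min was 1.95 times that at 0 min in knockdown cells and 2.17 times in control cells. Without the 3 highest genes the sums at 225 min were 3.06 and 2.88 times those at 0 min. FPKM has no outside standard, so these are changes relative to the bulk of mRNA and not amounts per cell.

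**Figure D1:**
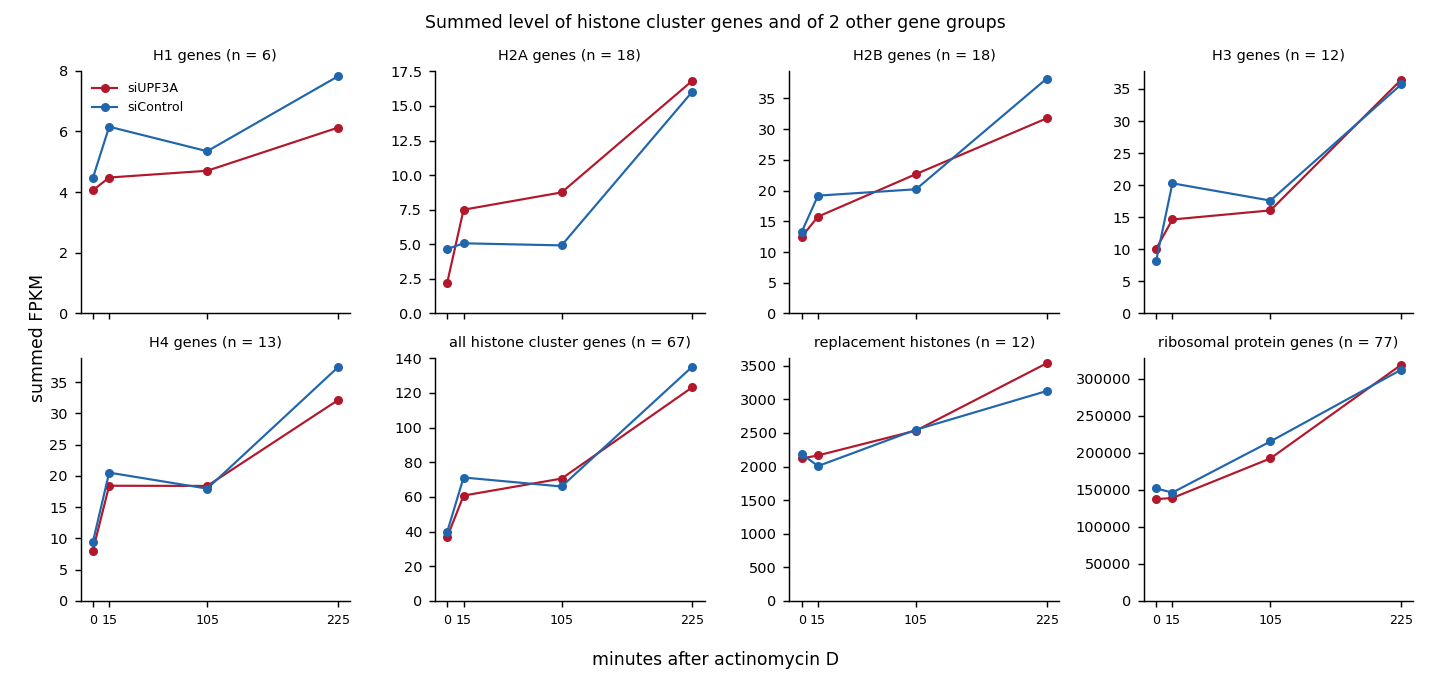
Summed FPKM (vertical axes, from 0) of the histone cluster genes by histone type, of all 67, of replacement histones and of ribosomal protein genes, against minutes after actinomycin D; red is siUPF3A and blue siControl, with 1 deposited value per point. The sum of all 67 genes ended at 123 FPKM in siUPF3A and 135 FPKM in siControl, and was already higher at 15 min than at 0 min in both arms, unlike the 2 comparison groups in siControl.

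Part of the increase was present at 15 min, when the sum of the 67 genes was 1.65 times that at 0 min in knockdown cells and 1.78 times in control cells. At the same time the sum of replacement histones was 1.02 and 0.918 times its starting level, and that of ribosomal protein genes 1.01 and 0.963 times. The H4 genes stood at 2.29 and 2.19 times their level at 0 min, the H3 genes at 1.46 and 2.49 times, and the H2A genes at 3.36 and 1.09 times. The ratios were 1.26 and 1.45 for the H2B genes and 1.10 and 1.38 for the H1 genes, so that the arms were closest for H4 and farthest apart for H2A and H3. Genes for other RNAs without a poly(A) tail were few in the table. The sum of the 9 listed was 3.87 and 2.23 times the starting level at 15 min, and most of it came from Rmrp, the RNA of the RNase MRP enzyme. Rmrp had 7.51, 35.0, 6.30 and 16.9 FPKM in the knockdown arm, against 4.68, 11.2, 6.66 and 12.5 FPKM in the control arm. Rmrp was lower at 105 than at 15 min in both arms, while the sum of the 67 histone genes was higher at 105 min in knockdown cells and lower in control cells. The part of library selection in the 15 min values was not tested.

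Counted gene by gene, 49 of the 53 histone cluster genes above 0 at either end were higher at 225 than at 0 min in the knockdown arm, and 44 of 55 in the control arm. Over all genes the share was 47.3% in knockdown cells and 47.3% in control cells. Single values were imprecise: the deposited upper limit lay a median of 91.7% above the FPKM for the 20 genes, against 32.4% for all genes averaging 1 FPKM or more. A gene listed at 0 has limits of 0 and 0, so limits were compared only where both values were above 0. Limits at 225 min lay wholly above those at 0 min in 3 of 43 such genes in the knockdown arm (Hist3h2ba, Hist1h4d and Hist1h2ag), where the share over all genes was 4.73%. In the control arm this held for 2 of 41 genes (Hist3h2ba and Hist1h3c), against 2.19% of all genes.

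The change over time was tested as a slope of log2(FPKM + 1) per hour in both arms together, fitted with limma across all genes. Over all 58 histone cluster genes above 0 in any condition, 24 rose and 2 fell at an adjusted p below 0.05, against 26.3% higher and 28.2% lower among the 19710 genes fitted in the same way. With a minimum mean of 1 FPKM, 17 of 20 rose and none fell, against 42.7% higher and 38.6% lower of 11452 genes. That minimum favours genes that are high late, since 12 of the 20 had a mean under 1 FPKM at 0 min. Of the 8 that already had 1 FPKM or more at 0 min, 7 rose, against 42.5% of all such genes. The median slope of the 20 was 0.27 per hour and that of all genes tested 0.01. It was 0.28 in knockdown cells and 0.25 in control cells taken alone. The result leans on the last time point: without 225 min only 4 of the 20 rose, against 34.2% of all genes.

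**Figure D2:**
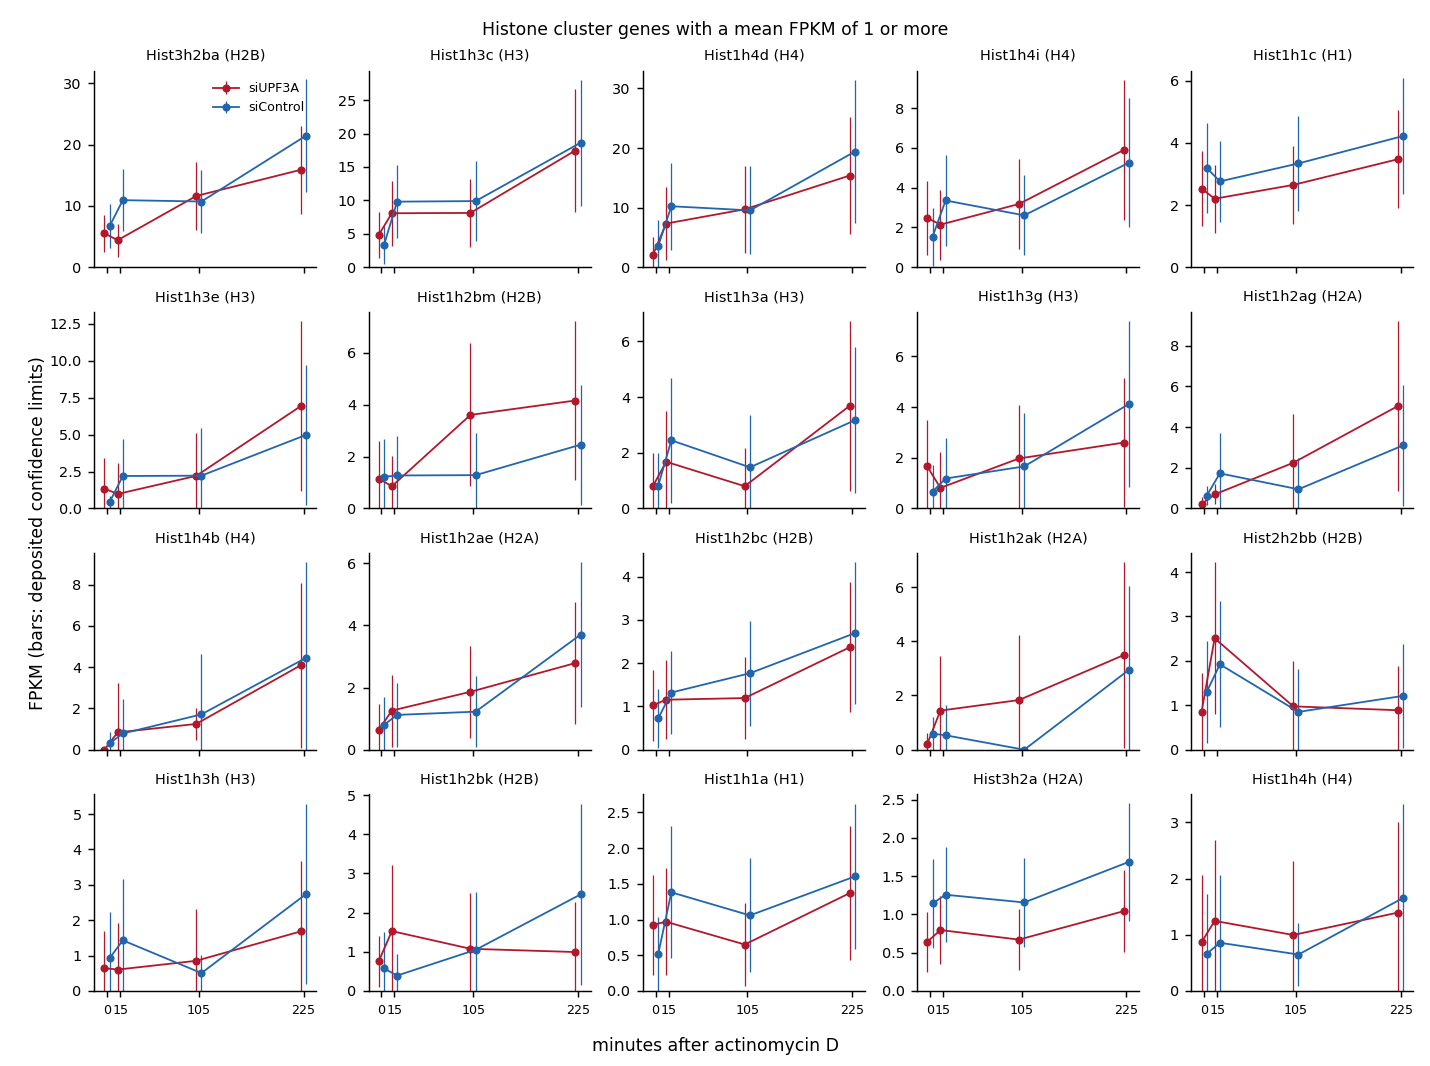
FPKM of the 20 histone cluster genes averaging 1 FPKM or more (vertical axes, from 0, each with its own scale) against minutes after actinomycin D; points are the deposited values, bars the deposited confidence limits, red siUPF3A and blue siControl. At 225 min 20 genes in siUPF3A and 19 in siControl stood above their own 0 min value, against 52.9% and 51.7% of all genes averaging 1 FPKM or more. Of the 20, 12 averaged under 1 FPKM at 0 min and passed the minimum only through later values, which favours a rise. Limits of the arms overlapped at every time, as they did for nearly all genes.

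H4, with H3 the centre of the nucleosome, was represented by 4 genes, and all of them rose. Of the 4, Hist1h4b and Hist1h4h averaged under 1 FPKM at 0 min and passed the minimum only through later values, which favours a rise. Hist1h4b had 0, 0.839, 1.25 and 4.10 FPKM in the knockdown arm at 0, 15, 105 and 225 min, against 0.316, 0.786, 1.71 and 4.46 FPKM in the control arm. Its slope of 0.52 per hour (SE 0.05, adjusted p = 2.43e-05 by limma) was exceeded by 0.0699% of genes tested, a rank that this selection favours. The deposited limits of Hist1h4b at 225 min were wide, from 0.103 to 8.10 FPKM in knockdown cells and from 0 to 9.075 FPKM in control cells. Hist1h4d had 2.11, 7.33, 9.72 and 15.4 FPKM in knockdown cells, against 3.58, 10.2, 9.54 and 19.4 FPKM in control cells, with a slope of 0.46 per hour (SE 0.11, adjusted p = 0.00397). The first 15 min held the steepest part of its course in both arms. Hist1h4i had 2.48, 2.14, 3.18 and 5.90 FPKM in knockdown cells, against 1.53, 3.36, 2.61 and 5.26 FPKM in control cells, and a slope of 0.27 per hour (SE 0.05, adjusted p = 0.00136). Hist1h4h, the lowest of the 20, had 0.866, 1.25, 0.996 and 1.40 FPKM in knockdown cells, against 0.661, 0.858, 0.648 and 1.66 FPKM in control cells. Its slope of 0.11 per hour (SE 0.04, adjusted p = 0.0283) was small, and turned to -0.02 without 225 min.

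All 5 H3 genes rose as well. Of these, Hist1h3e, Hist1h3a and Hist1h3h averaged under 1 FPKM at 0 min and passed the minimum only through later values, which favours a rise. Hist1h3c had 4.85, 8.08, 8.12 and 17.5 FPKM in the knockdown arm, against 3.31, 9.81, 9.90 and 18.6 FPKM in the control arm, and a slope of 0.40 per hour (SE 0.08, adjusted p = 0.00197). It was flat between 15 and 105 min in both arms. Hist1h3e had 1.35, 0.979, 2.20 and 6.94 FPKM in knockdown cells, against 0.439, 2.20, 2.22 and 4.98 FPKM in control cells, with a slope of 0.46 per hour (SE 0.07, adjusted p = 3.64e-04). Hist1h3g had 1.66, 0.812, 1.97 and 2.60 FPKM in knockdown cells, against 0.663, 1.18, 1.66 and 4.12 FPKM in control cells, with a slope of 0.29 per hour (SE 0.06, adjusted p = 0.0013). For both genes the knockdown value was the higher at 0 min and the lower at 15 min.

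The other 2 H3 genes rested on the last time point. Hist1h3a had 0.807, 1.68, 0.799 and 3.68 FPKM in knockdown cells, against 0.823, 2.45, 1.48 and 3.17 FPKM in control cells. Hist1h3h had 0.645, 0.604, 0.853 and 1.69 FPKM in knockdown cells, against 0.933, 1.43, 0.505 and 2.74 FPKM in control cells. Their slopes were 0.24 (SE 0.09, adjusted p = 0.0303) and 0.19 per hour (SE 0.07, adjusted p = 0.0268), and -0.04 and -0.09 per hour without 225 min.

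Of 5 H2B genes, which pair with H2A at the rim of the nucleosome core, 3 rose. Among these 3, Hist1h2bc averaged under 1 FPKM at 0 min and passed the minimum only through later values. Hist3h2ba had 5.55, 4.41, 11.6 and 15.9 FPKM in the knockdown arm, against 6.72, 10.9, 10.7 and 21.5 FPKM in the control arm, and a slope of 0.38 per hour (SE 0.06, adjusted p = 2.76e-04). It was lower at 15 than at 0 min in knockdown cells and higher in control cells. Hist1h2bm had 1.15, 0.856, 3.60 and 4.16 FPKM in knockdown cells, against 1.22, 1.27, 1.28 and 2.46 FPKM in control cells, with a slope of 0.28 per hour (SE 0.07, adjusted p = 0.00404). Hist1h2bc, the only 1 of the 20 with 2 exons in its representative transcript, had 1.03, 1.16, 1.19 and 2.37 FPKM in knockdown cells, against 0.723, 1.32, 1.77 and 2.69 FPKM in control cells. Its slope was 0.22 per hour (SE 0.03, adjusted p = 3.34e-04), and its 15 min values were close to those at 0 min in knockdown cells.

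The other 2 H2B genes did not pass the test. Hist1h2bk had 0.758, 1.53, 1.08 and 0.994 FPKM in knockdown cells, against 0.577, 0.393, 1.05 and 2.46 FPKM in control cells, and a slope of 0.16 per hour (SE 0.07, adjusted p = 0.0687). Hist2h2bb, the only 1 of the 20 with a negative slope (-0.09 per hour, SE 0.07, adjusted p = 0.244), had 0.850, 2.51, 0.976 and 0.889 FPKM in knockdown cells, against 1.30, 1.92, 0.852 and 1.21 FPKM in control cells. Both arms had its highest value at 15 min.

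All 4 H2A genes rose, though by unequal amounts. Each averaged under 1 FPKM at 0 min and passed the minimum only through later values, so that a rise in all 4 was favoured by the selection. Hist1h2ag had 0.222, 0.692, 2.25 and 5.04 FPKM in the knockdown arm, against 0.634, 1.73, 0.944 and 3.11 FPKM in the control arm, and a slope of 0.42 per hour (SE 0.09, adjusted p = 0.00185). Hist1h2ak had 0.207, 1.44, 1.83 and 3.49 FPKM in knockdown cells, against 0.593, 0.533, 0 and 2.95 FPKM in control cells, with a slope of 0.36 per hour (SE 0.11, adjusted p = 0.0126) and of 0.06 without 225 min. Both genes increased steadily in knockdown cells and unevenly in control cells.

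Hist1h2ae had 0.641, 1.26, 1.86 and 2.79 FPKM in knockdown cells, against 0.798, 1.12, 1.23 and 3.70 FPKM in control cells, and a slope of 0.31 per hour (SE 0.04, adjusted p = 1.55e-04). Hist3h2a, whose annotated transcript is the longest of the 20 (2146 bases), had 0.641, 0.796, 0.671 and 1.04 FPKM in knockdown cells, against 1.14, 1.26, 1.16 and 1.69 FPKM in control cells. Its slope was 0.07 per hour (SE 0.02, adjusted p = 0.0139), the smallest of those that rose.

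The linker histone genes had small slopes. Hist1h1c, which encodes H1.2, had 2.53, 2.21, 2.65 and 3.48 FPKM in the knockdown arm, against 3.19, 2.76, 3.34 and 4.23 FPKM in the control arm, and rose by 0.11 per hour (SE 0.02, adjusted p = 0.00108). It was lowest at 15 min in both arms. Hist1h1a, which encodes H1.1, had 0.927, 0.969, 0.650 and 1.37 FPKM in knockdown cells, against 0.518, 1.38, 1.06 and 1.60 FPKM in control cells, and its slope of 0.10 per hour did not pass the test (SE 0.05, adjusted p = 0.0909).

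The slopes moved with transcript length over all genes, and histone cluster mRNAs are short. The 20 genes had a median annotated length of 574 bases (381 to 2146), against 3098 bases for all genes tested, and 56.6% G and C against 50.4%. Among other genes the median slope was 0.18 per hour under 500 bases, 0.20 from 500 to under 1000 bases, 0.11 from 1000 to under 2000 bases, 0.01 from 2000 to under 4000 bases and -0.07 at 4000 bases or more. The histone genes of the first 3 classes had median slopes of 0.19 (7 genes), 0.29 (9 genes) and 0.22 (3 genes). In these classes 5 of 7, 8 of 9 and 3 of 3 histone genes rose, against 47.7%, 81.3% and 63.6% of the other genes of the same length. With the trends over length and G and C content removed, 11 of the 20 rose and Hist2h2bb alone fell. In that fit 5686 of all 11325 genes rose and 3627 fell, so the count of histone genes that rose was near the share over all genes, while fewer fell. The median slope of the 20 was 0.14 per hour in that fit, against 0.05 over all genes, and 17 of the 20 slopes were above 0. The minimum mean of 1 FPKM favours such a difference.

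**Figure D3:**
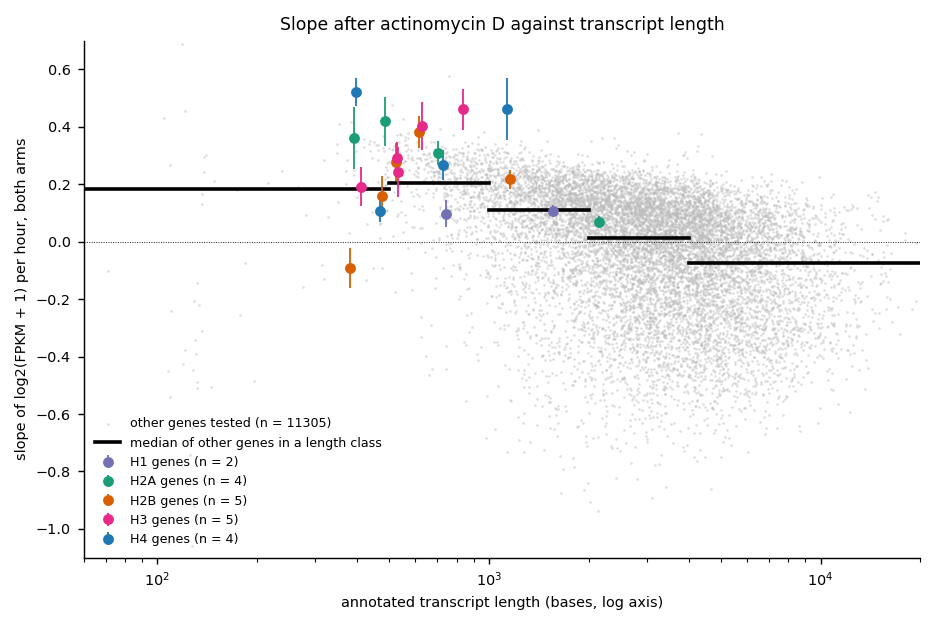
Slope of log2(FPKM + 1) per hour in both arms (vertical axis) against annotated transcript length in bases (log axis); grey points are other genes tested, black lines their medians in 5 length classes, and coloured points the 20 histone cluster genes by type with the SE of the slope (17 other genes lie outside the axes). Other genes of 500 to under 1000 bases have a median slope of 0.20 per hour, and the 9 histone genes of that length 0.29.

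The size of the increase, and in some genes its direction, also depended on the scale. Ribosomal protein genes, whose mRNAs are short and long-lived, rose in 76 of 77 cases with a median slope of 0.30 per hour. When every condition was scaled to these genes, the median slope of all genes moved by more than 0.1, to -0.23, and calls over all genes shifted to 47 higher and 10694 lower. On that scale the slope was above 0 in 15 of the 20 histone genes and below 0 in 5, against 19 and 1 as deposited. Hist1h4b (0.35 per hour), Hist1h3e (0.25), Hist1h2ag (0.24) and Hist1h2ae (0.12) still rose. All 4 averaged under 1 FPKM at 0 min and passed the minimum through later values, which favours a rise. No histone gene with a mean of 1 FPKM or more at 0 min was called higher on that scale, where only 47 of 11452 genes were. Among those genes, only Hist1h1c and Hist2h2bb had slopes below 0. Hist1h1c (-0.11 per hour), Hist3h2a (-0.08) and Hist2h2bb (-0.24) fell. The summed level of the 67 genes at 225 min, relative to the ribosomal protein genes, was 1.50 times that at 0 min in knockdown cells and 1.74 times in control cells.

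**Figure D4:**
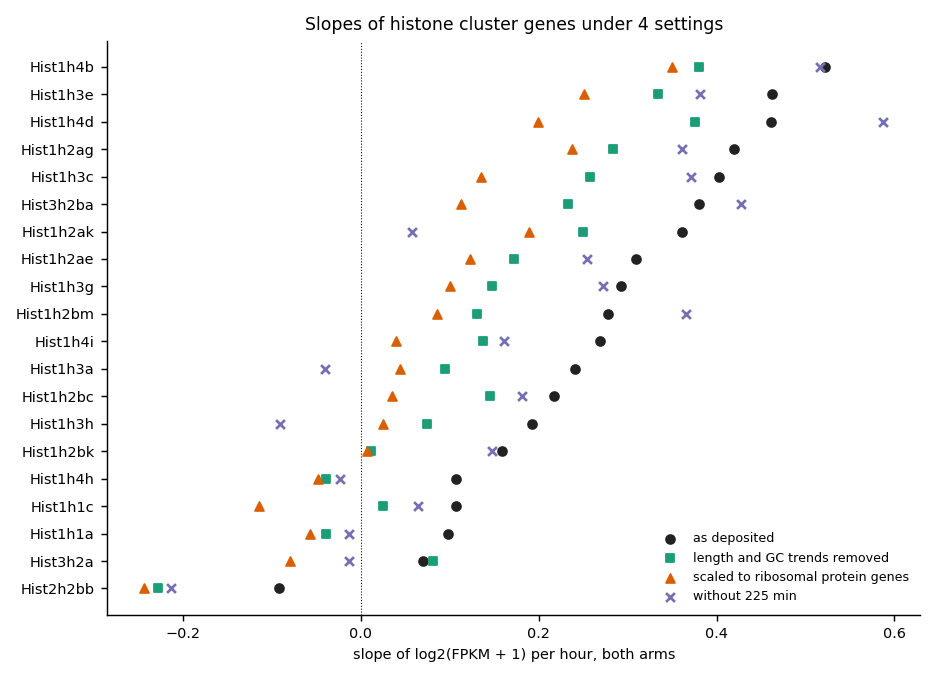
Slope of log2(FPKM + 1) per hour in both arms (horizontal axis) for each of the 20 histone cluster genes as deposited, with length and GC trends removed, scaled to ribosomal protein genes, and without 225 min. As deposited 19 of 20 slopes lie above 0, and 15 do when scaled to ribosomal protein genes. Of the 20, 12 averaged under 1 FPKM at 0 min and passed the minimum only through later values, which favours slopes above 0.

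Between the arms, 3 of the 20 genes were lower in knockdown cells across the 4 times and none was higher, against 22.3% lower and 26.1% higher of all genes tested (limma on log2(FPKM + 1), time point as a factor). Hist3h2a, an H2A gene, differed by -0.37 (log2, SE 0.04, adjusted p = 4.13e-04) and Hist1h1c by -0.24 (SE 0.04, adjusted p = 0.00236). Each was lower in knockdown cells at all 4 times, by 0.33 to 0.39 and by 0.22 to 0.25 log2 units. Exons of Trim17 overlap Hist3h2a on the same strand, so its values may include reads of that gene. Hist1h4d differed by -0.32 (SE 0.09, adjusted p = 0.0213) and was lower at 3 of 4 times. Its call was lost without 0, 15 or 225 min (adjusted p = 0.0845, 0.0725 and 0.0614), with no filter (0.082) and with scaling to ribosomal protein genes (0.0796), the range over its alternatives reaching 0.0845. The deposited limits of the arms overlapped for all 20 genes at every time, so these differences rest on their repetition over times. Such overlap was usual: of 11452 genes, limits lay apart in 66 to 161 that were higher and 26 to 58 that were lower in knockdown cells per time.

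The direction over the 20 genes was mixed, with 9 higher and 11 lower in knockdown cells and a median difference of -0.04, against 0.00 for all genes. Scaled to ribosomal protein genes, the counts were 11 and 9, and calls over all genes moved to 3881 higher and 1263 lower. Hist3h2ba had the largest negative difference (-0.42, SE 0.17, adjusted p = 0.0808) and Hist1h2ak the largest positive one (0.49, SE 0.26, adjusted p = 0.158), and neither passed the test. Over all 58 genes above 0, 1 was higher (Hist1h2bp, 0.26) and 3 were lower (Hist1h1c, Hist3h2a and Hist2h2be, the last by -0.19), against 14.9% and 14.7% of all genes fitted. The summed level of the 67 genes was 123 FPKM in knockdown cells and 135 FPKM in control cells at 225 min, and 36.9 and 39.9 FPKM at 0 min. H1 genes were the only type whose sum was lower in knockdown cells at all 4 times, with 4.06, 4.48, 4.70 and 6.12 FPKM against 4.46, 6.16, 5.35 and 7.82 FPKM.

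**Figure D5:**
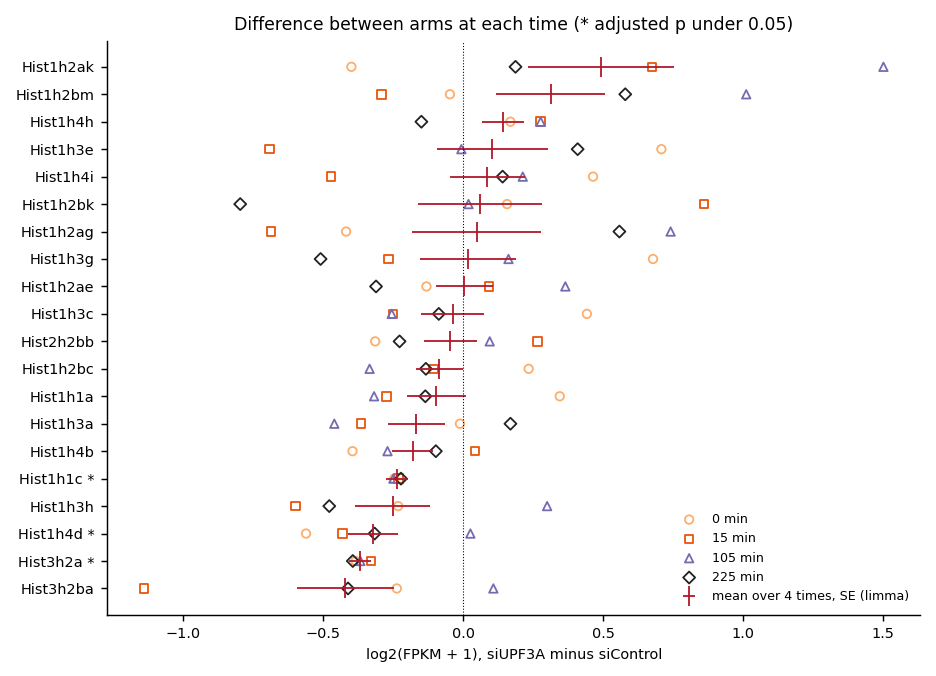
Difference in log2(FPKM + 1), siUPF3A minus siControl (horizontal axis), for the 20 histone cluster genes at 0, 15, 105 and 225 min (open symbols) with the mean over the 4 times and its SE from limma (red); an asterisk marks an adjusted p under 0.05. The 4 symbols of Hist1h1c and Hist3h2a lie close together below 0, and those of most other genes lie on both sides of 0.

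No histone cluster gene differed between the arms in its slope over time. The limma test of the arm-by-hours term called 0 of 20, in a comparison that called 0.00873% of all genes higher (1 gene) and 0% lower. Differences in slope ran from -0.35 per hour in Hist1h2bk (SE 0.08, unadjusted p = 0.00411, adjusted p = 0.646 by limma) to 0.33 per hour in Hist1h2ag (SE 0.10, unadjusted p = 0.0149, adjusted p = 0.68), and these 2 were the only ones with an unadjusted p below 0.05. The slopes of Hist1h2bk were -0.01 per hour in knockdown cells and 0.33 in control cells, and those of Hist1h2ag 0.58 and 0.25. Without 0 min, 2 genes passed, Hist1h2bk at -0.47 per hour (adjusted p = 0.00497) and Hist1h3e at 0.31 (adjusted p = 0.0482). Of all 11452 genes, 10 were called higher and 12 lower in that fit, which has fewer residual degrees of freedom than the main fit. A p that misses the threshold does not show equal slopes, and for the 20 genes the SE of the difference ran up to 0.18 per hour, in Hist1h2ak.

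Genes that act on histone mRNA were measured far more precisely than the histone genes. Of 25 genes for the processing of histone mRNA ends and its decay, 11 rose over time, 11 fell and 3 did not pass, with a median slope of 0.00 per hour, against 42.7% higher and 38.6% lower of all genes tested. Eri1, the exonuclease that trims the stem-loop (-0.37 per hour, adjusted p = 8.12e-07), Zcchc11, a uridyl transferase (-0.32, adjusted p = 8.12e-07), and Zfp473, part of the processing complex (-0.29, adjusted p = 1.83e-06), fell, and Lsm4, a subunit of the ring that binds uridine tails, rose by 0.37 per hour (adjusted p = 8.85e-07). Between arms, 7 of the 25 were higher and 3 lower in knockdown cells, against 26.1% and 22.3% of all genes tested. Xrn1, the main cytoplasmic 5' exonuclease, was higher by 1.33 log2 units (adjusted p = 4.74e-05) and Zcchc11 by 0.23 (adjusted p = 0.00271), while Lsm11, part of the U7 particle that cuts histone pre-mRNA (-0.37, adjusted p = 4.36e-04), and Slbp, the stem-loop binding protein (-0.30, adjusted p = 0.00212), were lower.

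Of 12 genes for the transcription of histone genes, 10 fell over time and 1 rose (median slope -0.19 per hour, where 42.7% of all genes tested rose and 38.6% fell). Those that fell included the transcription factor Pou2f1 (-0.45 per hour, adjusted p = 1.50e-06 by limma), Npat, the coactivator of histone gene transcription (-0.73 per hour, adjusted p = 8.47e-06), and Casp8ap2, a protein of the same nuclear body (-0.67, adjusted p = 1.69e-05). In knockdown cells 4 of the 12 were higher and 2 lower. Of 11 replacement histone genes, 9 rose over time, including Cenpa, the centromeric H3 (0.19 per hour, adjusted p = 5.58e-06), H2afx (0.27 per hour, adjusted p = 1.04e-05) and H2afv (0.25, adjusted p = 8.16e-06), and 1 fell, H1f0 (-0.19, adjusted p = 7.03e-06). In knockdown cells 4 of the 11 were higher and none lower, led by the linker histones H1f0 (0.79 log2 units, adjusted p = 5.38e-05) and H1fx (0.68, adjusted p = 4.38e-04), in the opposite direction to Hist1h1c. Of 19 histone chaperones, 10 rose over time and 6 fell, and 5 were higher and 2 lower in knockdown cells, where 26.1% and 22.3% of all genes tested were called. Of 28 S phase genes, 19 rose and 6 fell over time, and 1 was higher (Tk1, 0.78) and 12 were lower in knockdown cells. None of these 5 lists held a gene whose slope differed between the arms in limma's test at an adjusted p below 0.05.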

How the data were processed

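RNA was sequenced from P19 cells in 8 conditions. Reads were aligned with TopHat2 and levels estimated with Cufflinks on mm10, per the submitters' processing notes, without versions. The deposited table holds 1 FPKM value, with lower and upper confidence limits in FPKM, per gene and condition, per the file headers. How the authors combined the 2 cultures of a condition, and the annotation they counted on, are not given in the sources used here. FPKM is not a count, the depth is unknown, and no interval for counting error was computed.

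Columns were matched to conditions by arm and time. limma 3.58.1 (R 4.3.3) was fitted to log2(FPKM + 1), pseudocount 1, for the 11452 genes averaging 1 FPKM or more, eBayes without trend, with Benjamini-Hochberg adjustment over all of them and a threshold of 0.05. The 3 fits were time point plus arm (3 residual degrees of freedom), the same plus arm by hours (2), and arm plus hours (5). Since each condition has 1 value, p-values cover disagreement between time points only. A log2 difference on this scale understates changes of low genes. Alternatives are listed in the closing part. The fits were tested on simulated data, where the slope fit made more false calls than its threshold allows and the fit of the slope difference missed small differences.

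Loci were taken from the table, and lengths, exons and sequences from GENCODE vM21 (GRCm38), which held all 67 genes and 98.9% of genes tested. All histone genes averaging 1 FPKM or more are named, others by the highest means or where 5 or fewer are counted; those whose limits separated, and Rmrp, H2afz and H3f3a, were named after their values were seen. From each list of other genes up to 4 with the largest moderated t are named. The genes and lists were chosen with earlier results of these data known. The change of the sum relative to other sums was added after seeing the data.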

Additional observations from a re-analysis of the deposited data

How the results depend on the processing

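The slope over time was called in 17 of 20 histone genes, all higher, against 4891 higher and 4423 lower of all 11452 genes. A call in either direction was thus common over all genes. The count was 16 with a pseudocount of 0.1 or 5 and with a trended robust prior, and 17 with median-of-ratios scaling. In these fits 4712 to 4871 of all genes were higher and 4357 to 4563 lower. It was 19 after quantile normalization, against 5309 higher and 3784 lower of all genes. Without length and GC trends it was 12 (11 higher, 1 lower), against 5686 higher and 3627 lower of 11325. At a mean FPKM of 5 or more it was 3 of 3 genes, against 4110 higher and 2685 lower of 8099. With no filter it was 26 of 58, against 5187 higher and 5557 lower of 19710. Scaled to ribosomal protein genes it was 7 of 20, against 47 higher and 10694 lower of 11452. When each time point was left out in turn it was 4 to 19. It was lowest without 225 min, where 3919 of 11452 genes were higher and 3596 lower. Of the 17, 11 were still called without length and GC trends and 4 when scaled to ribosomal protein genes. Slopes kept their sign under every alternative run in 13 of 20 genes. Scaling to ribosomal protein genes turned Hist1h1c to -0.1141, Hist1h1a to -0.05731, Hist3h2a to -0.07935 and Hist1h4h to -0.04838 per hour. Removing length and GC trends turned Hist1h1a to -0.03968 and Hist1h4h to -0.03913, and quantile normalization turned Hist2h2bb to 0.0147. With a time point left out, slopes ran from -0.01382 to 0.1452 in Hist1h1a, -0.04082 to 0.3467 in Hist1h3a, -0.09136 to 0.2272 in Hist1h3h, -0.0239 to 0.1407 in Hist1h4h and -0.01334 to 0.08719 in Hist3h2a, each lowest without 225 min. The cause was not tested in any of these.

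The difference between arms was called in 3 of 20 genes, in 2 of 20 when scaled to ribosomal protein genes, and in 1 of 3 at a mean FPKM of 5 or more. At that mean fewer genes were tested, with 2295 of 8099 called higher and 1656 lower. With a time point left out the difference was called in 4 to 5 of the 20, against 2261 to 2700 higher and 1926 to 2232 lower of 11452 genes. In each fit without 0, 15 or 225 min, 1 of the called histone genes was higher in knockdown cells, unlike in the main fit. The difference in slope was called in 0 genes under all alternatives except leaving out time points, which gave 0 to 2. The 2 were called without 0 min, where 10 of all 11452 genes were called higher and 12 lower. The 20 genes averaging 1 FPKM or more became 3 at a mean of 5 and 5 where 1 FPKM was asked of every condition. The Upf3a log2 ratio was -1.58 and -0.98 with pseudocounts of 0.1 and 5, and -1.48 to -1.34 with a time point left out. No paired analysis was possible because each condition has 1 deposited value and the columns carry no replicate number, so cultures could not be paired; the arms were compared within time points.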

Other observations

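Below the minimum of 1 FPKM, 2 histone cluster genes fell over time in the fit of all genes above 0. Hist4h4, an H4 gene on chromosome 6 outside the large clusters, had 0.712, 0.910, 0.568 and 0.375 FPKM in knockdown cells at 0, 15, 105 and 225 min, against 1.04, 0.825, 0.385 and 0.490 FPKM in control cells, with a slope of -0.11 per hour (limma adjusted p = 0.0173). Hist2h2be, an H2B gene, had 0.278, 0.244, 0.188 and 0.206 FPKM in knockdown cells, against 0.521, 0.524, 0.335 and 0.264 FPKM in control cells, with a slope of -0.05 per hour (limma adjusted p = 0.0269). The other 24 genes called in that fit all rose.

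By stem-loop, the 15 of the 20 genes with a match had a median slope of 0.29 per hour (0.07 to 0.52), the 2 without one in the window 0.16 and the 3 with no annotated sequence there 0.19. Of the 2, Hist1h1a has only 48 annotated bases after its stop codon. Among the other lists, beside 26.1% higher and 22.3% lower of all genes tested, 6 of 9 P19 markers were higher and 1 lower in knockdown cells, 3 of 3 neural markers were lower, 1 of 5 fibroblast and smooth muscle markers was higher and 1 lower, and the 1 endoderm marker tested, Gata6, did not pass. Over time, where 42.7% of all genes tested rose and 38.6% fell, 5 of 5 fibroblast and smooth muscle markers rose, as did 3 of 9 P19 markers and 1 of 3 neural markers, while 4 P19 markers and Gata6 fell. Rmrp and Rpph1, both without a poly(A) tail, passed neither test.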
